A study of Mus musculus with 12 samples.

Results

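The immediate early genes Fos, Fosb, Junb, Egr1, Egr2, Arc, Npas4, Nr4a1, Dusp1 and Ier2 were followed in every mouse of the series. These 10 genes were given by name, and each was the sum of all RefSeq entries that carry its symbol, out of 23781 symbols in all. RNA of whole bilateral hippocampi from 12 male C57BL/6 mice was sequenced as 50 bp single end reads. Every mouse, the controls included, had been injected into the hippocampus at 10 weeks of age with an AAV vector that expresses GFP from the human synapsin promoter, and the tissue was taken 10 weeks later. The sponge vectors carry in addition a run of imperfect target sites for a miRNA family, which sequester that miRNA. The miR-9 experiment had 3 GFP-miR-9sp mice (9, 17 and 23) and 3 GFP Ctrl mice (2, 8 and 16), and the miR-34 experiment had 3 GFP-miR-34sp mice (3, 13 and 18) and 3 other GFP Ctrl mice (4, 8 and 10). The synapsin promoter limits the vectors to neurons, whereas the RNA came from all cells of the tissue, so that fewer cells of a type and less RNA per cell cannot be told apart. The labels name hippocampal neurons, and markers of neurons, astrocytes, oligodendrocytes and microglia were present. The paper also describes behavioural tests of injected mice in the weeks before tissue was taken. Its main text does not state whether the sequenced mice had taken them.

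Immediate early genes are transcribed within minutes of a stimulus, without the need for new protein synthesis. In hippocampal neurons, calcium entry at active synapses and growth factor signalling activate CREB and SRF, which occupy the CRE and CArG elements of these genes, and the short-lived transcripts are widely used as a record of recent neuronal activity. Fos, Fosb and Junb encode subunits of the AP-1 transcription factor, Egr1 and Egr2 zinc finger transcription factors, Npas4 a neuronal bHLH-PAS factor induced by calcium influx, and Nr4a1 an orphan nuclear receptor. Dusp1 encodes a phosphatase that inactivates MAP kinases, Ier2 a small nuclear protein, and Arc a synaptic protein that promotes the removal of AMPA receptors from the membrane.

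The sequences around the start sites are shown for the elements that CREB, SRF and their partners are known to bind. RefSeq windows of GRCm38.p6, from 250 bases before to 50 bases after an annotated start, were held for 7 of the 10 genes (Fos, Fosb, Junb, Egr2, Npas4, Nr4a1 and Dusp1). Those of 4 genes are shown, chosen as the gene with the widest range among the well counted ones (Fos), the gene restricted to neurons (Npas4) and the pair with the highest r between mice of the miR-9 experiment (Nr4a1 and Dusp1). Each is written 5′ to 3′ on the strand of the gene. Capitals mark, on either strand, the CRE core TGACG, the full CRE TGACGTCA, the TATA box TATAAA and the EGR site GCGNGGGCG.
Fos, chr12:85473640-85473939, plus strand: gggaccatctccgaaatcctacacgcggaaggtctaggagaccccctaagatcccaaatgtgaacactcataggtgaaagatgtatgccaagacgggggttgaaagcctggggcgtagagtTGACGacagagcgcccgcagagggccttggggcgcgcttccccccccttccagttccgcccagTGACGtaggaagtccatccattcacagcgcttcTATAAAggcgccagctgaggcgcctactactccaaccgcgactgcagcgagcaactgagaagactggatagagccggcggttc
Npas4, chr19:4989922-4990221, minus strand: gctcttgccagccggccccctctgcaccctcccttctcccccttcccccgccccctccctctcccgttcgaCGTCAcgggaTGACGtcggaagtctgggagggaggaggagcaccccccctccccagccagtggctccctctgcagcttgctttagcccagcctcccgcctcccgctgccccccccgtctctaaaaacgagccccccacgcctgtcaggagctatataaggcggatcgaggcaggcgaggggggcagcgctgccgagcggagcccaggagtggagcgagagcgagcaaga
Nr4a1, chr15:101266596-101266895, plus strand: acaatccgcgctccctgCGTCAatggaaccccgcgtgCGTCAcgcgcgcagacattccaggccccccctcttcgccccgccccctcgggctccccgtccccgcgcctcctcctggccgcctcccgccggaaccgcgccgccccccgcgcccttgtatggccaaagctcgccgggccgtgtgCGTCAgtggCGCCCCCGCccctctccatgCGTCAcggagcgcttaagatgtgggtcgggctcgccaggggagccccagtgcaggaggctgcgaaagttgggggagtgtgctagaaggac
Dusp1, chr17:26508423-26508722, minus strand: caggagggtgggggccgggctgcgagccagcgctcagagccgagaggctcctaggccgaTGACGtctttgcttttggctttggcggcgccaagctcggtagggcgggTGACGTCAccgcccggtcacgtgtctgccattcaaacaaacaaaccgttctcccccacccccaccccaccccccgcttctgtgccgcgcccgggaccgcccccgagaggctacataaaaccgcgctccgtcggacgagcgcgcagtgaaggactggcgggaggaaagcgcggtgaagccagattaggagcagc

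On either strand, the CRE core TGACG was present in all 7 genes with a window, and in 20.8% of the 32817 windows of all genes. Fos had 2 copies, starting 129 and 66 bases before its start site, Nr4a1 had 4 and Npas4 had 2. The full CRE TGACGTCA, which holds the core on both strands, was found in Dusp1 only, 143 bases before its start, and in 1.79% of all windows. A CArG box, the element bound by SRF, was found in 1 of the 7 genes (Egr2, which has 5 windows, most of them overlapping) and in 1.63% of all windows. The letters of the TATA box were in 2 genes (Fos and Junb) and 13.6% of windows. They start 33 bases before the start site in Fos, but at the annotated start site itself in Junb. The EGR site was in 2 genes (Fosb and Nr4a1) and 5.56% of windows. The AP-1 site TGANTCA was in none of the 7 and in 7.81% of all windows. These are matches of letters within 300 bases and say nothing of sites farther away.

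The targeted miRNAs were compared with the same genes. The mature sequences from RefSeq are shown because their seeds, bases 2 to 8 in capitals, define the sites that the sponges compete for. The paper also counts miR-34c in the miR-34 family, and its mature sequence was not held.
mmu-miR-9-5p: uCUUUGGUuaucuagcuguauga
mmu-miR-34a-5p: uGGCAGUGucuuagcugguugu
mmu-miR-34b-5p: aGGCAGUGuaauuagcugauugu
The heptamer opposite the miR-9 seed, ACCAAAG, was in the longest annotated 3′ UTR (GENCODE M1, mm9) of none of the 10 genes, and in that of 11.4% of 19915 genes. The heptamer opposite the shared seed of miR-34a and miR-34b, CACTGCC, occurred once in each of 3 genes, Fos, Fosb and Egr2, and in 13.99% of all genes. The sites, in capitals within 30 bases of mm9 on the strand of the gene, are shown with the bases around them.
Fos, chr12:86817436-86817465, plus strand: atccagacgtgcCACTGCCcgagctggtgc
Fosb, chr7:19888211-19888240, minus strand: agaagggcctgcCACTGCCgaccacaattc
Egr2, chr10:67004781-67004810, plus strand: gtgcttcaatgtCACTGCCgctgatttgtt
None of the 3 heptamers is followed by an A, the base that makes the longer 8mer site.

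Of the 10 genes, 9 were measured. Arc was listed at 0 in all 12 mice on both of its RefSeq entries. Reads were counted per RefSeq entry, and other genes known to be abundant in many cells, among them Jund, were listed at 0 in all mice too. Of symbols with 1 entry 17.4% were at 0 in every mouse, of symbols with 2 entries 19.4%, and of symbols with 3 or more 26.3%. No level of Arc was therefore taken from these values, and the reason for the zeros was not tested. The other 9 genes each have 1 entry, with 19 to 7754 reads per mouse. Library totals ran from 17279620 to 24428477 reads for the mice of the miR-9 experiment and from 11029604 to 16934133 for those of the other, and levels are given as CPM, reads per 1000000 after TMM scaling.

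Per kilobase of transcript, the mean level over the 12 mice was highest for Egr1, at 71.0 ± 24.5 CPM per kb (SD, n = 12), followed by Junb at 44.6 ± 16.1, Nr4a1 at 32.3 ± 15.2 and Dusp1 at 14.4 ± 5.72. Fos (10.4 ± 7.65), Ier2 (5.35 ± 1.68), Npas4 (4.98 ± 2.79), Fosb (4.21 ± 1.37) and Egr2 (1.70 ± 1.29 CPM per kb) followed. Egr1 exceeded Junb, Junb exceeded Nr4a1, Nr4a1 exceeded Dusp1 and Fosb exceeded Egr2 in 12 of 12 mice. Dusp1 was above Fos in 11 mice and Fos above Ier2 in 10. Neighbours lower in the order did not keep it, since Ier2 was above Npas4 in 9 mice and Npas4 above Fosb in 7.

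The AP-1 subunits varied widely between mice of the same group. Fos, the inducible partner in AP-1, was at 9.68, 56.3 and 8.89 CPM in GFP Ctrl mice 2, 8 and 16 of the miR-9 experiment and at 9.18, 39.4 and 10.2 CPM in GFP-miR-9sp mice 9, 17 and 23. In the miR-34 experiment Fos was at 13.7, 15.8 and 34.9 CPM in GFP Ctrl mice 4, 8 and 10 and at 22.6, 5.55 and 35.1 CPM in GFP-miR-34sp mice 3, 13 and 18. Thus 1 GFP Ctrl mouse and 1 sponge mouse stood high in each experiment, and the groups overlapped in both. The highest mouse had 10.1 times the Fos level of the lowest. Fosb spanned less than Fos, with 12.7 to 28.0 CPM over the mice of the miR-9 experiment and 8.78 to 20.5 CPM over those of the other. Junb, the partner subunit, was at 54.98, 131 and 55.05 CPM in GFP Ctrl mice 2, 8 and 16 and at 65.0, 110 and 55.8 CPM in GFP-miR-9sp mice 9, 17 and 23. Its levels of 65.8, 68.8 and 116 CPM in GFP Ctrl mice 4, 8 and 10 and of 90.04, 51.9 and 119 CPM in GFP-miR-34sp mice 3, 13 and 18 set the same mice apart.

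The zinc finger factors had the same high mice. Egr1, which is also transcribed in unstimulated hippocampus, was at 185, 405 and 176 CPM in GFP Ctrl mice 2, 8 and 16 and at 184, 277 and 197 CPM in GFP-miR-9sp mice 9, 17 and 23. It was at 148, 176 and 256 CPM in GFP Ctrl mice 4, 8 and 10 of the miR-34 experiment and at 211, 128 and 275 CPM in GFP-miR-34sp mice 3, 13 and 18. Mice 8 and 17, and mice 10 and 18, were the highest of their experiments, and the groups overlapped. Egr2, a close relative with fewer reads, was at 1.89, 12.9 and 2.11 CPM in GFP Ctrl mice and at 0.996, 9.33 and 2.35 CPM in GFP-miR-9sp mice, in the order above. In the miR-34 experiment it was at 2.42, 3.84 and 8.80 CPM in GFP Ctrl and at 6.54, 1.95 and 7.42 CPM in GFP-miR-34sp mice. The lowest of these values rests on 19 reads, and the highest, 12.9 times as high, on 247 reads.

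Npas4 and Nr4a1 shared their high mice but not the whole order of the mice. Npas4 was at 9.54, 31.3 and 8.36 CPM in GFP Ctrl mice 2, 8 and 16 and at 20.6, 34.1 and 11.1 CPM in GFP-miR-9sp mice 9, 17 and 23. Mouse 17, not mouse 8, was here the highest, and mouse 9, which had the lowest Egr2 level of all, had the third Npas4 level of its experiment. In the miR-34 experiment Npas4 was at 7.17, 11.7 and 19.8 CPM in GFP Ctrl mice 4, 8 and 10 and at 12.6, 8.17 and 21.5 CPM in GFP-miR-34sp mice 3, 13 and 18. Nr4a1 was at 51.5, 163 and 55.7 CPM in GFP Ctrl and at 56.7, 115 and 48.4 CPM in GFP-miR-9sp mice, and at 60.0, 67.1 and 117 CPM in GFP Ctrl and 81.1, 37.8 and 107 CPM in GFP-miR-34sp mice. Among the other members, the phosphatase gene Dusp1 spanned 18.1 to 51.7 CPM and Ier2 spanned 5.35 to 12.4 CPM over the 12 mice, and their high mice were those of Fos.

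**Figure D1:**
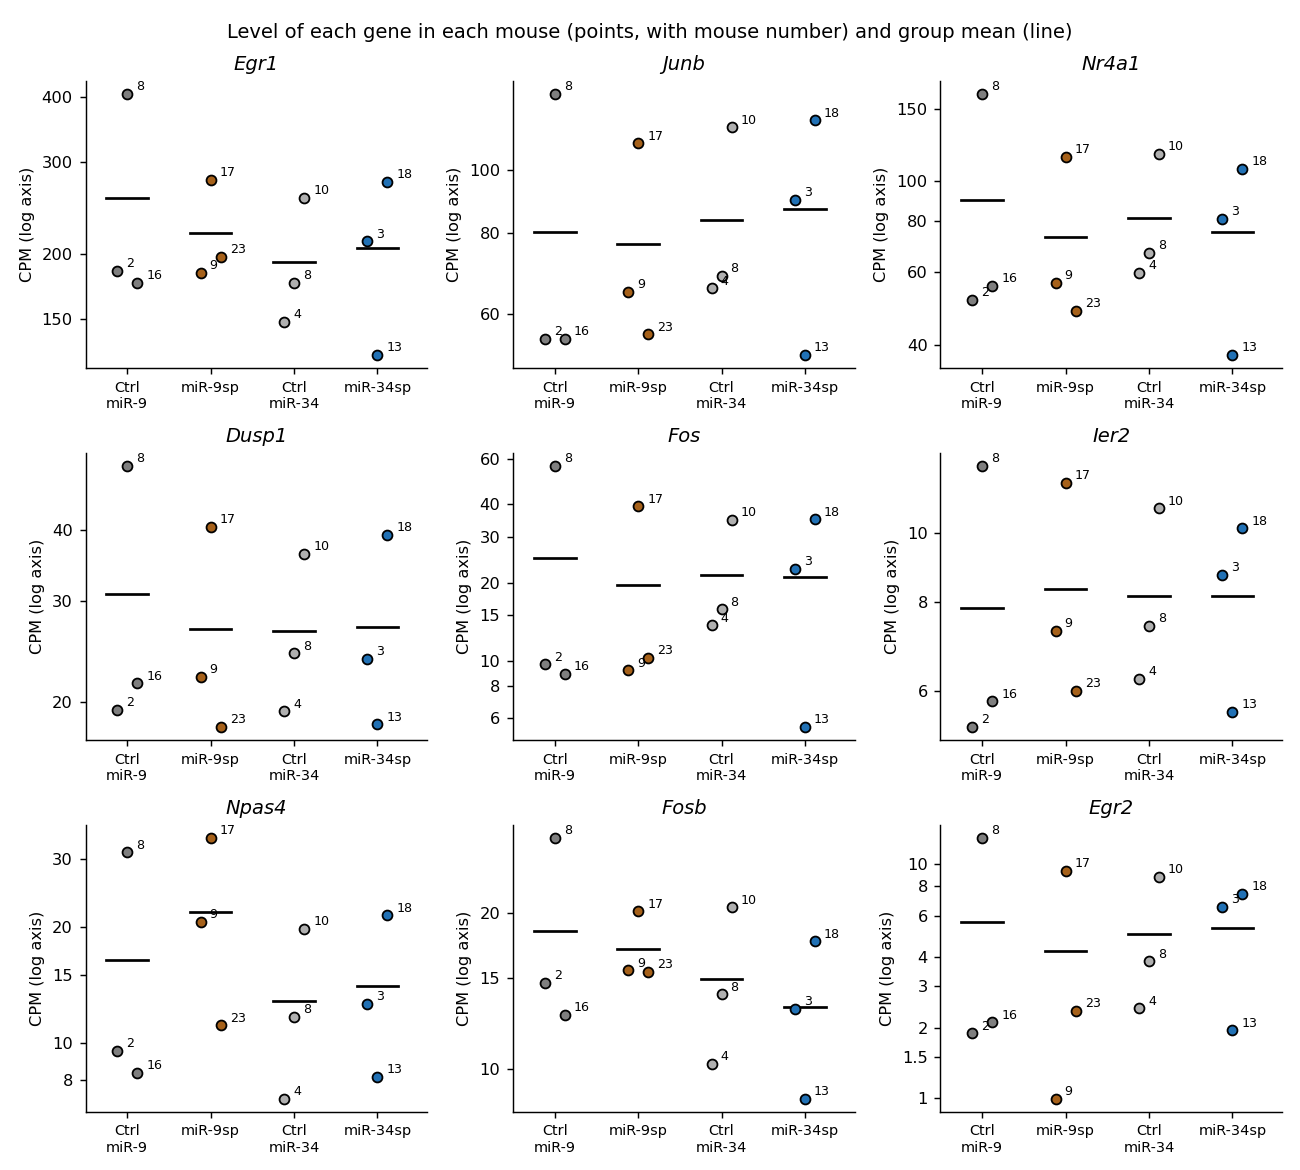
Level of the 9 measured immediate early genes in each mouse, in CPM on a log axis, for the 4 groups of 3 mice. Points are mice with their numbers and lines are group means. Each group holds a high mouse (8, 17, 10 and 18), so that Fos runs from 8.89 to 56.3 CPM within the GFP Ctrl mice of the miR-9 experiment alone.

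Counted over genes, GFP Ctrl mouse 8 of the miR-9 experiment ranked highest of 6 mice for 8 genes and second for Npas4, and GFP-miR-9sp mouse 17 was second for 8 genes and highest for Npas4. Relative to the median of the experiment, mouse 8 was at 1.81 to 5.78 times across the 9 genes and mouse 17 at 1.31 to 4.18 times. In the miR-34 experiment GFP-miR-34sp mouse 18 was highest for 5 genes and GFP Ctrl mouse 10 for 4, and both were in the top 2 for all 9. Their levels were 1.26 to 1.83 times and 1.32 to 1.82 times the median. GFP-miR-34sp mouse 13 was lowest for 8 of the 9 genes, at 0.289 to 0.760 times the median. The totals of the 4 high mice, 19003542, 19594685, 13656685 and 11650694 reads, lay inside the ranges of their experiments, whereas mouse 13 had the largest total of its experiment, 16934133 reads. The summed level of choroid plexus markers, which differed most between mice, was 118 CPM in mouse 8, against 713 and 278 CPM in GFP Ctrl mice 2 and 16. It was 845 CPM in mouse 17, against 50.7 and 66.3 CPM in GFP-miR-9sp mice 9 and 23. In the miR-34 experiment mouse 10 was at 650 CPM, against 1987 and 2380 CPM in GFP Ctrl mice 4 and 8. Mouse 18 was at 70.1 CPM, against 136 and 149 CPM in GFP-miR-34sp mice 3 and 13. A relation of these sums to the members was not tested.

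**Figure D2:**
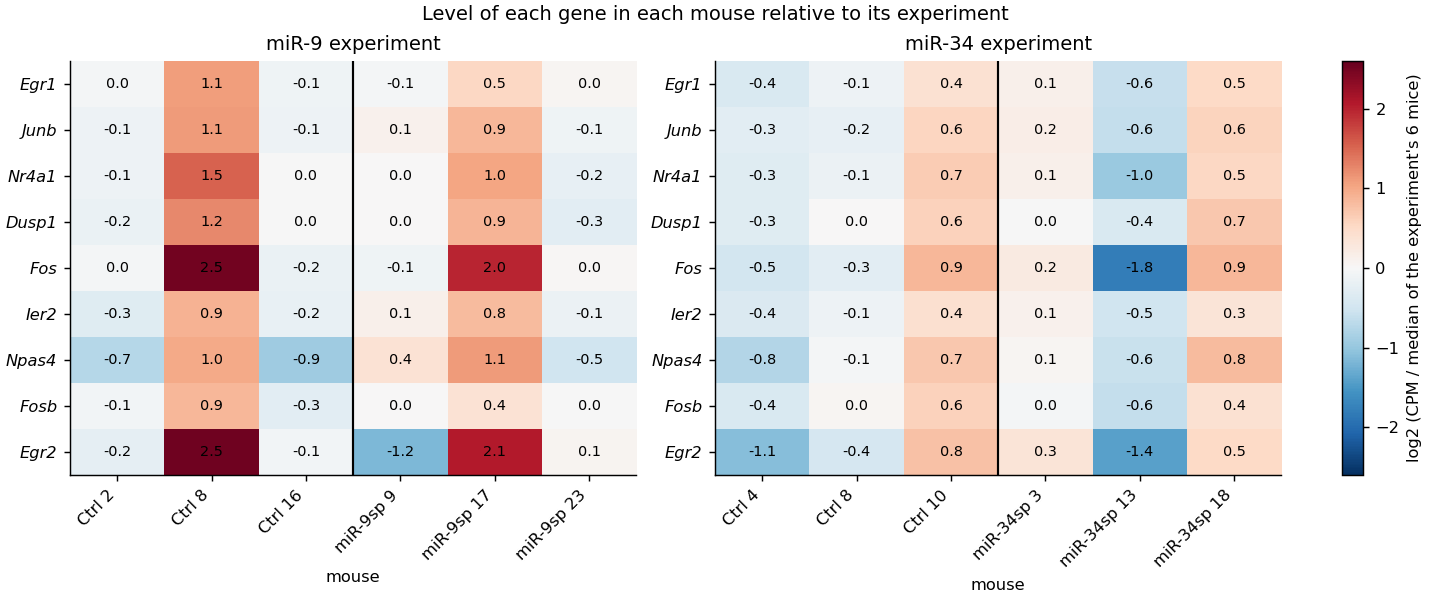
Level of each gene in each mouse as the log2 of its CPM over the median of the 6 mice of the experiment, with GFP Ctrl mice left and sponge mice right of the line. Mice 8 and 17 are above the median for all 9 genes in the miR-9 experiment, and mice 10 and 18 in the miR-34 experiment. Mice 2 and 16 of the miR-9 experiment and mice 4 and 13 of the miR-34 experiment are below it for all 9. Mice 9 and 23 of the miR-9 experiment and mice 3 and 8 of the miR-34 experiment lie on both sides of it.

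The spread between mice that had received the same vector was among the widest of all genes. The SD of log2 CPM around the 4 group means (8 degrees of freedom) was 1.29 for Egr2, rank 6 of 12698 genes, 1.22 for Fos, rank 10, 0.83 for Npas4, rank 30, and 0.74 for Nr4a1, rank 48. Dusp1 (0.61, rank 112), Junb (0.58, rank 125), Ier2 (0.51, rank 236), Egr1 (0.51, rank 238) and Fosb (0.48, rank 331) were lower, and still within the top 2.61% of genes. The median over the 9 genes was 0.61, against 0.11 over all genes. All of this is a description, since the genes were chosen with earlier results of these data known. The fewer the reads, the wider the SD of genes in general, and Egr2 is among the members with few reads whereas Egr1 and Junb are not. Leaving out single mice, the median SD of the members was between 0.50 and 0.65.

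**Figure D3:**
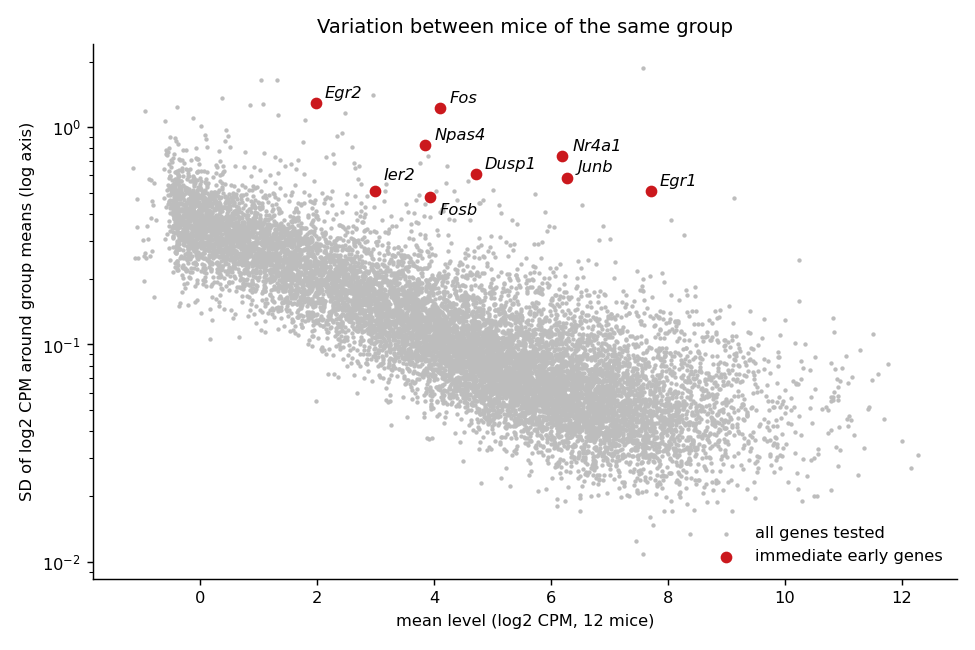
SD of log2 CPM around the group means (log axis) against mean log2 CPM over 12 mice, for 12698 genes in grey and the immediate early genes in red. The 9 genes lie along the upper edge of the cloud at every level, from Egr2 with an SD of 1.29 to Fosb with 0.48.

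Pearson's r of log2 CPM over the 6 mice of an experiment was computed for the 36 pairs of measured genes. In the miR-34 experiment it was between 0.86 and 0.99 with a median of 0.95, all 36 pairs had a Benjamini-Hochberg adjusted p under 0.05 over the 72 pairs of both experiments (exact permutation test, two-sided), and the median Spearman's rho was 0.94. Without the 2 mice farthest from the median, all 36 pairs stayed positive and the median r was 0.96. For 32 of the pairs the mice left out included low mouse 13, and for 35 at least 1 of the high mice 10 and 18 remained. Without both high mice all 36 pairs were positive as well, with a median r of 0.89 and a lowest r of 0.64. In the miR-9 experiment r was between 0.69 and 1.00 with a median of 0.95, and 33 of 36 pairs had an adjusted p under 0.05. That relation rests on mice 8 and 17, which stood apart from the other 4. Without the 2 farthest mice the median r was 0.21 and 20 of the 36 pairs were positive, and the median rho over 6 mice was 0.77, with 6 pairs under 0.05 after adjustment. The exact test of 6 mice can give no p below 0.00139. Over all pairs of 11948 genes the median r was 0.00 in both experiments. An r of 0.9 or more was reached by 28 and 32 of the 36 member pairs in the miR-9 and miR-34 experiments, and by 0.872% and 0.819% of all pairs.

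Particular pairs showed where the genes went together and where they did not. Fos and Egr1, both classical CREB and SRF target genes, had r = 0.97 in the miR-9 experiment and 0.96 in the miR-34 experiment with rho = 1.00 in both (exact permutation p = 0.00139 for r, adjusted p = 0.0111, n = 6 each), and kept r = 0.96 and 0.98 without the 2 farthest mice. Nr4a1 and Dusp1 had the highest r of the miR-9 experiment, 0.998, with rho = 1.00 (exact permutation p = 0.00139, adjusted p = 0.0111), and r = 0.91 with rho = 0.89 in the miR-34 experiment (exact permutation p = 0.0111, adjusted p = 0.0211). Fos and Nr4a1 had the highest r of the miR-34 experiment, 0.995, with rho = 0.94 (exact permutation p = 0.00278, adjusted p = 0.0133). In the miR-9 experiment the same genes had r = 0.98 with rho = 0.49 (exact permutation p = 0.0319, adjusted p = 0.0359), and r fell to -0.95 without mice 8 and 17. Egr2 and Npas4 were the loosest pair, with r = 0.69 and rho = 0.54 in the miR-9 experiment (exact permutation p = 0.15, adjusted p = 0.15), where mouse 9 was lowest for Egr2 but above the median for Npas4, and r = 0.93 with rho = 0.89 in the miR-34 experiment (exact permutation p = 0.0153, adjusted p = 0.0240). Npas4 had the lowest median r with its 8 partners in both experiments, 0.85 and 0.93.

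**Figure D4:**
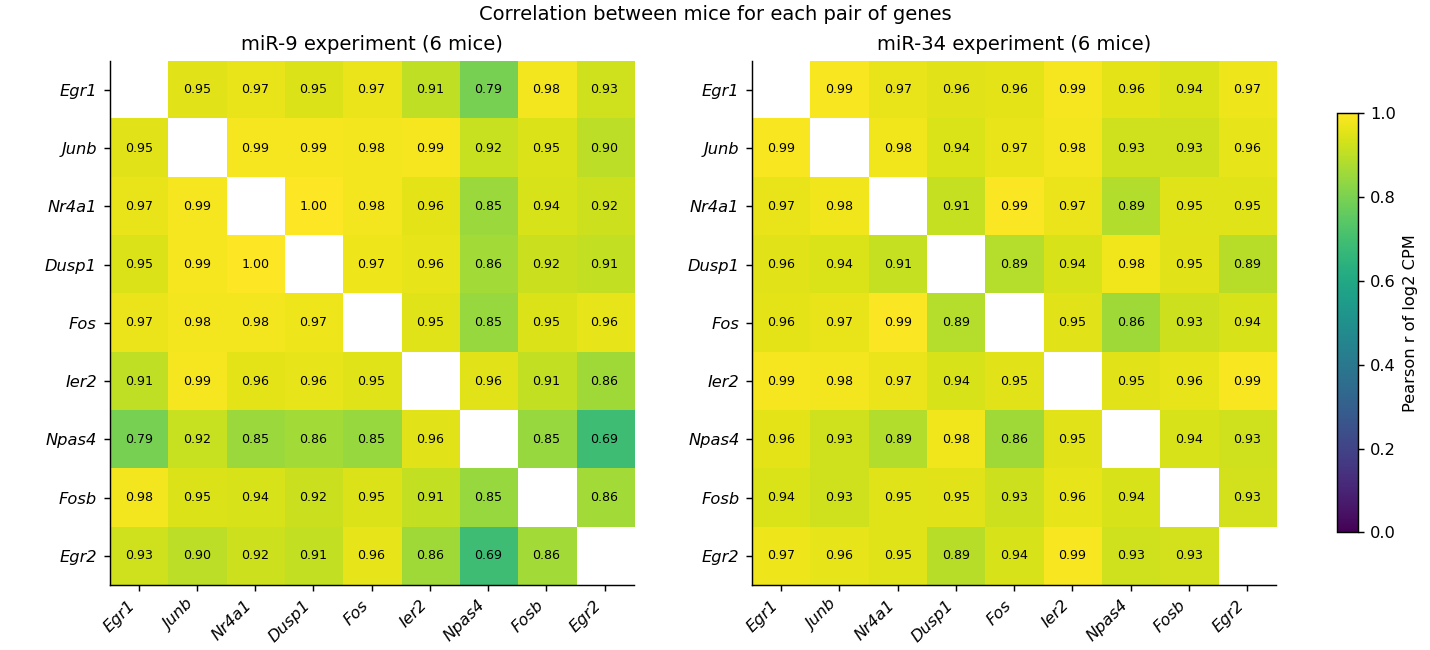
Pearson's r of log2 CPM for each pair of the 9 genes, over the 6 mice of the miR-9 experiment (left) and the 6 mice of the miR-34 experiment (right). Values lie between 0.69 and 1.00 on the left, with Npas4 as the weakest row, and between 0.86 and 0.99 on the right.

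Other genes of the early response followed the same mice. The mean log2 CPM of the 9 genes, centred on the group means, was compared with every gene with a mean of 1 CPM or more. The 10 closest of 11939 genes, as a description over 12 mice, were Egr4 (r = 0.99), Sik1 (0.98), Btg2 (0.98), Tiparp (0.97), Ccn1 (0.96), Spty2d1 (0.96), Gadd45b (0.95), Cebpg (0.95), Midn (0.94) and Tob1 (0.94). Egr4 is the fourth zinc finger factor of its family, Sik1 a kinase that restrains CREB coactivators, Btg2 an antiproliferative cofactor and Gadd45b a stress and activity induced DNA demethylation factor. The r within the 6 mice of each experiment was at least 0.88 for all 10. The 5 genes with the most negative r were Mtmr3 (-0.97), Zfp628 (-0.96), Thoc3 (-0.94), Cabp1 (-0.93) and Ccsap (-0.91), and their SDs between mice were small, at 0.04 to 0.08 on the log2 scale. The SDs of the 10 closest genes ran from 0.07 for Cebpg and 0.12 for Spty2d1 to 0.66 for Ccn1.

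Lists of genes around the pathway were read the same way. Among 20 other rapidly induced effectors, all measured, 13 had r above 0.5 with the members (median 0.72), among them Sik1, Gadd45g (0.92), Trib1 (0.91) and the phosphatase genes Dusp6 (0.88) and Dusp5 (0.87). Of 20 other rapidly induced transcription factors 14 were measured, and 10 had r above 0.5 (median 0.65). Egr4, Btg2, Fosl2 (0.89) and Csrnp1 (0.87) were at the top, whereas Klf4 (0.31), Nr4a3 (0.28), Jun (0.23) and Maff (-0.27) stayed below 0.5. Jun had r = -0.13 over the mice of the miR-9 experiment and 0.67 over those of the miR-34 experiment. Nr4a3 had 0.12 and 0.57, in the same order. The transcription factors not measured were Jund and Myc (0 reads over the 12 mice), Egr3 (72), Per1 (16), Crem (5) and Fosl1 (9). All of them but Fosl1 have 2 or more RefSeq entries, as Arc does, and the reason for the low counts was not tested. Late response genes, which need new protein for their induction, passed 0.5 in 4 of 16 (median 0.20), with the neuropeptide precursor Vgf (0.85) and the synaptic pentraxin Nptx2 (0.77) highest. Upstream regulators passed it in 2 of 16 (median -0.08), of which Srf, the factor of the CArG box, had 0.76 at an SD between mice of only 0.06. Over all genes, 9.04% had r above 0.5. The marker lists had medians of 0.00 for neurons, -0.28 for astrocytes, -0.40 for microglia, -0.34 for endothelium, 0.09 for oligodendrocytes, -0.11 for choroid plexus, -0.25 for dentate granule cells, -0.07 for CA pyramidal cells, -0.11 for striatum and 0.30 for thalamus and habenula, over 3 to 7 measured genes each. The neuron markers include Syt1 (3 RefSeq entries, 352 reads over the 12 mice) and Syn1 (2 entries, 316 reads). Whether these reads cover all of their transcripts was not tested. The choroid plexus median pools opposite signs in the experiments. Over the mice of the miR-34 experiment r was -0.85 for Ttr, -0.83 for Kcne2, -0.77 for Aqp1 and -0.58 for Kl. Over those of the miR-9 experiment these genes had 0.21, 0.18, 0.18 and 0.12, in the same order. Whether the experiments differ in this was not tested. Markers of blood were near 0 CPM in all mice, with 3 of 5 listed at 0.

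The comparison of sponge with GFP Ctrl asks whether sequestering a miRNA in neurons shifted the activity-regulated genes. After GFP-miR-9sp no difference from GFP Ctrl passed a test for any of the 9 genes. By edgeR's quasi-likelihood test, 0 of 9 had a Benjamini-Hochberg adjusted p under 0.05 (background 0%). By the same test 0 of 9 had an unadjusted p under 0.05 (background 4.76% of 12906 genes). DESeq2 called 0 of 9 (background 0.0155%), and the study's criterion, recomputed from the deposited counts, called 0 of 9 (background 1.43%). The 3 sponge mice and 3 GFP Ctrl mice overlapped for all 9 genes, as they did for all but 10.2% of genes. The log2 fold change was above 0 for Ier2 and Npas4 and below it for the other 7, with a median of -0.17, against 49.7% above 0 and a median of 0.00 over all genes. Fos had a mean of 24.97 ± 27.2 CPM in GFP Ctrl and 19.6 ± 17.1 CPM in GFP-miR-9sp (SD, n = 3 each), a log2 fold change of -0.30 ± 0.72 (SE, edgeR adjusted p = 0.981). The interval of this difference, 0.269-fold to 2.47-fold, includes large changes in either direction. Npas4 had the largest difference, 16.4 ± 12.9 CPM in GFP Ctrl and 22.0 ± 11.6 CPM in GFP-miR-9sp (SD, n = 3), a log2 fold change of 0.47 ± 0.49 (SE, edgeR adjusted p = 0.970). Fosb had the narrowest interval, 0.634-fold to 1.38-fold. In the exact permutation test of 3 mice against 3, p was between 0.5 and 1 for the 9 genes, and the smallest p this design allows is 0.1. The direction depended on the high mice. Without GFP Ctrl mouse 8 all 9 genes were higher after GFP-miR-9sp, with a median log2 fold change of 0.49 and 3 of 9 higher at an unadjusted p under 0.05 (edgeR, background 2.06% of 12913 genes higher), and without GFP-miR-9sp mouse 17 all 9 were lower, with a median of -0.42. No member had an adjusted p under 0.05 with any of the 6 mice left out.

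After GFP-miR-34sp no gene passed a test either, with 0 of 9 by adjusted p (edgeR, background 0.0324% of 12364 genes), 0 of 9 by unadjusted p (background 6.38%), 0 of 9 by DESeq2 (background 0.283%), and 0 of 9 by the study's criterion (background 1.98%). All 9 overlapped between the groups, and the background of genes that did not was 11.6%. The median log2 fold change was -0.02, with 3 genes above 0 (Egr1, Junb and Npas4), against 0.00 and 49.7% of genes above 0 over all genes. Fos was at 21.5 ± 11.7 CPM in GFP Ctrl and 21.1 ± 14.8 CPM in GFP-miR-34sp (SD, n = 3), with a log2 fold change of -0.11 ± 0.49 (SE, edgeR adjusted p = 0.983) and an interval from 0.437-fold to 1.97-fold. The other genes with a miR-34 heptamer in the 3′ UTR, Fosb and Egr2, had log2 fold changes of -0.22 ± 0.26 and -0.01 ± 0.47 (SE), and the 6 measured genes without one had values from -0.15 for Nr4a1 to 0.07 for Egr1. The exact permutation p was between 0.6 and 1. Without GFP Ctrl mouse 10 or GFP-miR-34sp mouse 13 all 9 genes were higher after the sponge (median 0.33 and 0.31), and without GFP Ctrl mouse 4, GFP Ctrl mouse 8 or GFP-miR-34sp mouse 18 all 9 were lower (median -0.21, -0.12 and -0.35). In this experiment the choroid plexus markers, of which 4 of 6 were measured, moved with the group. Their summed level was 650 to 2380 CPM in GFP Ctrl and 70.1 to 149 CPM in GFP-miR-34sp, and 2 of the 4 fell at an edgeR adjusted p under 0.05. Their part in the values of the immediate early genes was not tested.

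**Figure D5:**
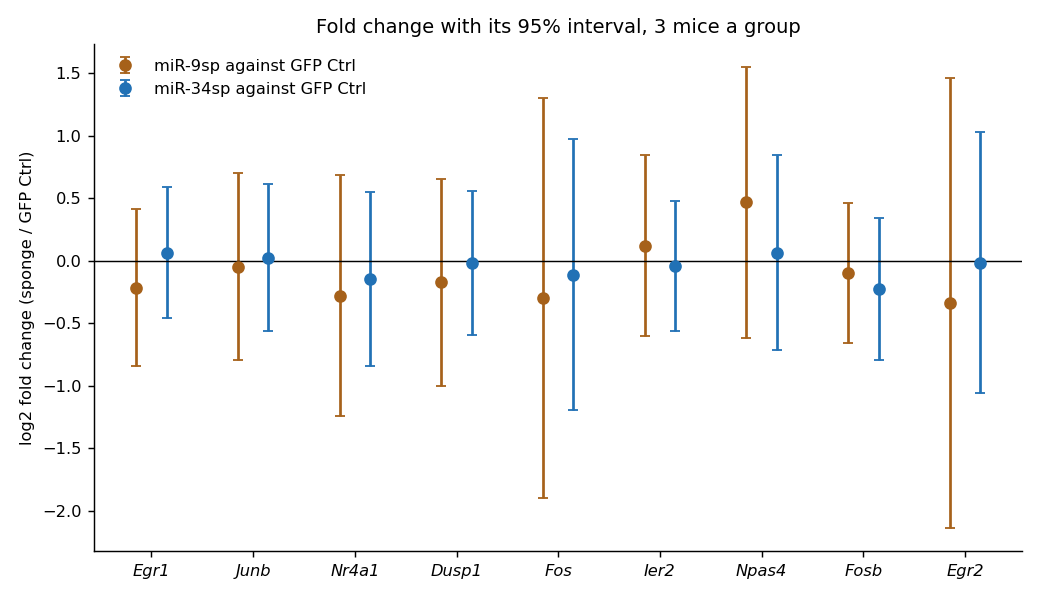
Log2 fold change of each gene, sponge over GFP Ctrl, with its 95% interval from edgeR, for the miR-9 (brown) and miR-34 (blue) experiments with 3 mice a group. Every interval includes 0. The widest are those of Egr2 and Fos in the miR-9 experiment and the narrowest those of Ier2 and Egr1 in the miR-34 experiment.

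The sponge effects of the experiments were then set against each other in 1 fit to the 12 mice. None of the 9 genes passed at an adjusted p under 0.05 (edgeR, background 0%) or at an unadjusted p under 0.05 (background 6.11% of 12698 genes), and DESeq2 called 0 of 9 (background 0.0394%). The difference in log2 fold change, miR-34sp minus miR-9sp, ran from -0.40 ± 0.74 for Npas4 to 0.32 ± 1.13 for Egr2 (SE). Between the GFP Ctrl mice of the experiments, for which the experiment and the preparation of the libraries cannot be told apart, 25.7% of genes had an edgeR adjusted p under 0.05 and 0 of the 9 did (36.7% of genes and 0 of 9 by unadjusted p). The log2 differences of the members, miR-34 minus miR-9, were between -0.39 for Egr1 and 0.09 for Ier2, with SEs of 0.30 to 0.79.

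The other pathway lists gave no call in either sponge comparison. Among 14 rapidly induced transcription factors, 20 rapid effectors, 16 late response genes and 16 upstream regulators tested, 0 had an edgeR adjusted p under 0.05 after either sponge. At an unadjusted p under 0.05 the counts after GFP-miR-9sp were 0, 1, 1 and 2 in that order, and after GFP-miR-34sp 0, 2, 3 and 0. Over all genes 4.76% and 6.38% passed that threshold, so that the lists together, with 4 and 5 of 66 genes, were near the background. The smallest p after GFP-miR-9sp in each list belonged to Atf3 (log2 fold change -0.50 ± 0.33) and Klf2 (-0.21 ± 0.14), to Amigo3 (0.32 ± 0.13) and Ccn1 (-0.48 ± 0.47), to the granin gene Scg2 (-0.13 ± 0.05) and Vgf (0.13 ± 0.07), and to the kinase gene Camk2a (0.15 ± 0.06) and the CREB coactivator gene Crtc1 (0.13 ± 0.06; SE). After GFP-miR-34sp they belonged to Atf3 (-0.77 ± 0.36) and Nr4a3 (-0.13 ± 0.07), to Errfi1 (-0.27 ± 0.08), a feedback inhibitor of the EGF receptor, and Dusp5 (-0.38 ± 0.16), to the neuropeptide genes Tac1 (-0.37 ± 0.12) and Penk (-0.37 ± 0.14), and to Mef2c (0.25 ± 0.18) and Mrtfa (0.18 ± 0.13; SE). Of these, Tac1 had the smallest adjusted p of the late genes, 0.586, and Errfi1 that of the effectors, 0.570, both by edgeR. No marker list other than choroid plexus held a called gene after either sponge.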

How the data were processed

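Hippocampal RNA of 12 mice was analysed, in 4 groups of 3 taken from the labels. The labels leave the experiment of 1 set of GFP Ctrl mice open, and the methods give 3 to each. The authors deposited raw counts of reads on each RefSeq entry, beside the length of the entry in bases as another kind of value that the authors give. The methods state poly-A enrichment, and the file headers of the miR-9 experiment alone hold the word totRNA. The methods name mm9 and RefSeq, and the submitters' processing notes name STAR and mm10, so the build stays uncertain. Of 32850 entries 98.7% were joined to a symbol and summed per symbol, and the rest held 0.773% to 2.18% of a mouse's reads. Sponge and GFP Ctrl were compared within each experiment by edgeR 4.0.16 (R 4.3.3, quasi-likelihood test, TMM, genes with a mean scaled count above 10, Benjamini-Hochberg over all genes). DESeq2 1.42.0, other scalings and filters, transcript rows, 1 model of 12 mice, the study's criterion (unadjusted p under 0.05 and a ratio above 1.2 or below 0.833) and leaving out each mouse were alternatives. As recomputed here, the study's criterion called 185 of 12943 genes after GFP-miR-9sp and 245 of 12377 after GFP-miR-34sp. Both counts are larger than those the paper reports. Correlations used log2 CPM with a prior count of 2, and exact permutation tests. They cover 72 pairs instead of those planned with Arc. The members and gene lists were chosen with earlier results of these data known. Genes of the pathway lists were named as the 2 with the smallest p per list and sponge comparison, and any with an adjusted p under 0.05 there. The comparisons between the experiments were not used for naming. The 10 highest and 5 lowest genes by likeness were named as well. Those named by their r in a list were picked after their values were seen. Mice are separate animals, and counting error from PCR copies is not covered by the intervals. The code was tested on simulated data. A marker gene of the cell type lists is not reported here.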

Additional observations from a re-analysis of the deposited data

How the results depend on the processing

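Under DESeq2, RLE size factors, total counts alone, no filter on low counts, transcript rows, 1 model of 12 mice and the study's criterion, 0 of the 9 genes were called in either sponge comparison, and of 126 single fold changes 121 kept their sign. After GFP-miR-34sp, Dusp1 (0.0218 and 0.0275) and Egr2 (0.0729 and 0.0854) were above 0 with DESeq2 and with the ratio of means of the study's criterion, and Ier2 (0.0060) with the latter, all near 0. Spearman's rho in place of r moved the miR-9 experiment from a median of 0.95 to 0.77 and from 33 to 6 pairs, and in the miR-34 experiment from 36 to 25 pairs. Leaving out both high mice of an experiment, an alternative chosen after seeing the data, gave a median r of 0.21 and 0.89.

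With 1 mouse left out, the number of called members stayed at 0 in all 4 comparisons, whereas 40 of 108 single fold changes turned. The median log2 fold change of the members ran from -0.42 to 0.49 after GFP-miR-9sp, from -0.35 to 0.33 after GFP-miR-34sp, from -0.60 (without GFP Ctrl mouse 8 of the miR-9 experiment) to 0.48 for the difference between them, and from -0.58 to 0.56 between the GFP Ctrl groups. After GFP-miR-9sp the log2 fold change ran from -0.59 to 0.40 for Dusp1, -0.42 to 0.28 for Egr1, -1.71 to 1.09 for Egr2, -1.33 to 1.09 for Fos, -0.31 to 0.32 for Fosb, -0.21 to 0.59 for Ier2, -0.40 to 0.49 for Junb, -0.0032 to 1.31 for Npas4 and -0.76 to 0.46 for Nr4a1. After GFP-miR-34sp it ran from -0.37 to 0.28 for Dusp1, -0.20 to 0.33 for Egr1, -0.33 to 0.69 for Egr2, -0.68 to 0.45 for Fos, -0.48 to 0.0879 for Fosb, -0.22 to 0.23 for Ier2, -0.26 to 0.35 for Junb, -0.35 to 0.53 for Npas4 and -0.49 to 0.22 for Nr4a1. The median r ran from 0.92 to 0.97 and from 0.94 to 0.97. No paired analysis was possible because the sponge and GFP Ctrl mice of an experiment share no number in the labels. With 3 mice a group and this spread the intervals are wide, and the smallest difference that could have been detected was not computed.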

Other observations

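Genes of the early and late response lists did not all follow the same mice in both experiments. Homer1, which encodes a scaffold protein of the postsynaptic density and has an activity-induced short form, had r = 0.66 with the mean profile of the members over the 6 mice of the miR-9 experiment and -0.93 over those of the miR-34 experiment. Ppp1r15a, a stress-induced phosphatase regulator, had 0.92 and -0.01, and Scg2, a late response gene, had -0.64 and 0.76. In contrast Sik1, Tiparp and Egr4 had values of 0.97 to 0.99 in both. These genes were picked after their values were seen, each r rests on 6 mice, and differences between the experiments were not tested. Homer1 has 4 RefSeq entries that together held 1551 reads over the 12 mice. Whether these reads cover all of its forms, the short form included, was not tested.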
